A study of Mus musculus with 6 samples.

Results

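Carnosine is a dipeptide of beta-alanine and histidine, and 4 genes of its synthesis, breakdown and uptake were followed here. Carns1 encodes the synthase, Cndp1 and Cndp2 encode carnosine-cleaving dipeptidases, and Slc15a2 encodes the peptide transporter PEPT2. The members were all the probe sets that the platform annotation pairs with 1 of these symbols and no other, which gave 7 of 34945 single-symbol probe sets and 4 of 18193 genes. Carns1 had 1 probe set, Cndp1 had 1, Cndp2 had 2 and Slc15a2 had 3. The mutant against wild-type difference of Carns1 was already known when the members were chosen, so all such differences of members are given as descriptions, with no p-value.

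The study profiled RNA of olfactory epithelium, the sensory lining of the back of the nose, from 3 wild-type and 3 mutant mouse pups aged 1 day, with 1 array per pup. Per the labels, pups of both groups came from a mix of the strains C57Black6/J and 129SvJ, and column-purified total RNA was amplified before biotin labelling. The labels say mutant and give no allele, and the series title asks for potential targets of KLF7, a Krüppel-like transcription factor active in neurons. All 4 Klf7 probe sets were lower on every mutant array than on any wild-type array, with log2 differences, mutant minus wild type, from -3.06 to -2.15.

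Carnosine is abundant in mature olfactory sensory neurons, and it is also known from skeletal muscle and from oligodendrocytes. CARNS1 joins the amino acids with the use of ATP. CNDP2 is a broadly expressed cytosolic dipeptidase, while CNDP1 is a more selective carnosinase, secreted into serum in people and found mainly in kidney in rodents. PEPT2 carries dipeptides and tripeptides, carnosine among them, into cells together with protons, and is known from kidney, choroid plexus and glial cells.

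Deposited intensities were quantile normalised, raised to a floor at an intensity of 12.56 and put on the log2 scale. Total deposited intensity ran from 10064207 to 14439788 per array. Of the 7 probe sets, 6 had a mean above the level of 5.19 below which genes were left out of the test across genes as dim. The exception was the Cndp1 probe set, so 3 of the 4 genes entered that test. No member lay at the floor on any array. Levels of different probe sets are not compared with each other, because probes differ in their response. In tissue RNA, fewer cells of a type and less RNA per cell cannot be told apart.

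Carns1, the synthase, was the one member that set the groups apart. Its probe set 1427146_at read 8.43, 8.13 and 8.20 on wild-type arrays 1, 2 and 3 (log2 normalised intensity) and 6.76, 6.49 and 6.32 on mutant arrays 1, 2 and 3. Every wild-type array lay above every mutant array, and the lowest wild-type value exceeded the highest mutant value by more than the range within either group. The deposited intensities behind them ran 346.91, 304.77 and 241.98 over the wild-type arrays and 96.84, 116.21 and 76.71 over the mutant arrays, so the separation was present before normalisation.

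The Carns1 mean was 8.25 ± 0.16 over the wild-type arrays against 6.53 ± 0.22 over the mutant arrays (SD, n = 3 each). That is a log2 difference of -1.72, or a 3.30-fold lower level in the mutant, with a moderated SE of 0.27 from limma over all single-symbol probe sets and of 0.45 from limma over 1 probe set per gene. Between arrays of the same replicate number the differences were -1.66, -1.63 and -1.87, close to one another for numbers 1, 2 and 3. The spread of Carns1 within groups was small: its pooled SD was 0.19, against a median of 0.56 over the 12703 genes tested, and 6.19% of genes had a smaller one. A choice on this contrast favours genes of low spread, so nothing is read from that rank.

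**Figure D1:**
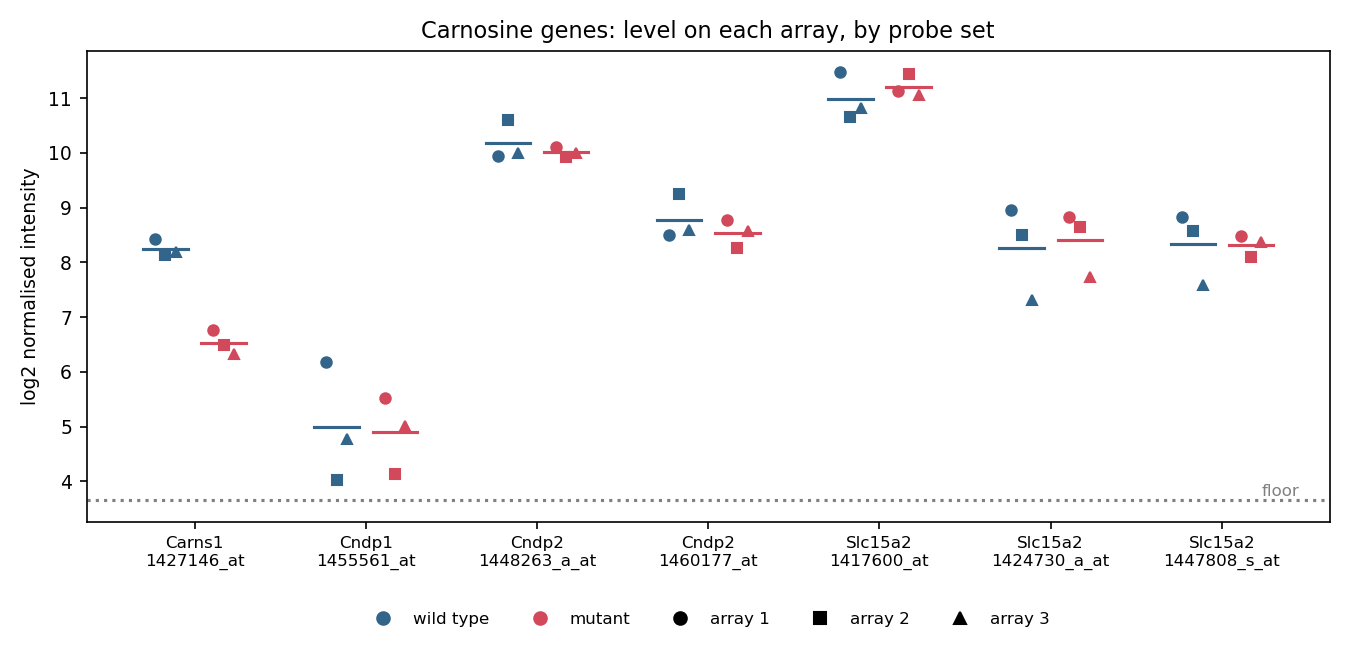
Log2 normalised intensity of the 7 probe sets of Carns1, Cndp1, Cndp2 and Slc15a2 on each of the 6 arrays; colours are groups, marker shapes are replicate numbers, short bars are group means and the dotted line is the floor. Carns1 shows 3 wild-type arrays at 8.13 to 8.43 and 3 mutant arrays at 6.32 to 6.76, while the groups overlap on the other 6 probe sets.

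Of the 7 member probe sets, 1 was lower without overlap between the groups, that of Carns1, and 0 were higher without overlap. Over all single-symbol probe sets, 1.62% were lower and 1.13% higher without overlap. Since Carns1 was chosen on this contrast, nothing is read from the count. Across the 12703 genes tested, limma called 0 after Benjamini-Hochberg adjustment, or 0%, with 76 genes (0.598%) at an unadjusted p under 0.05, and the smallest adjusted p was 1. A fit that blocked on the replicate number also called 0, with 157 (1.24%) at an unadjusted p under 0.05. The 3 members in that table, Carns1, Cndp2 and Slc15a2, were thus not called, which is stated for completeness and supports nothing. A difference at or below that of Carns1 was found for 9 genes, Carns1 included, where the median over all genes tested was -0.02. This rank too comes from the contrast on which Carns1 was chosen, and nothing is read from it.

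**Figure D2:**
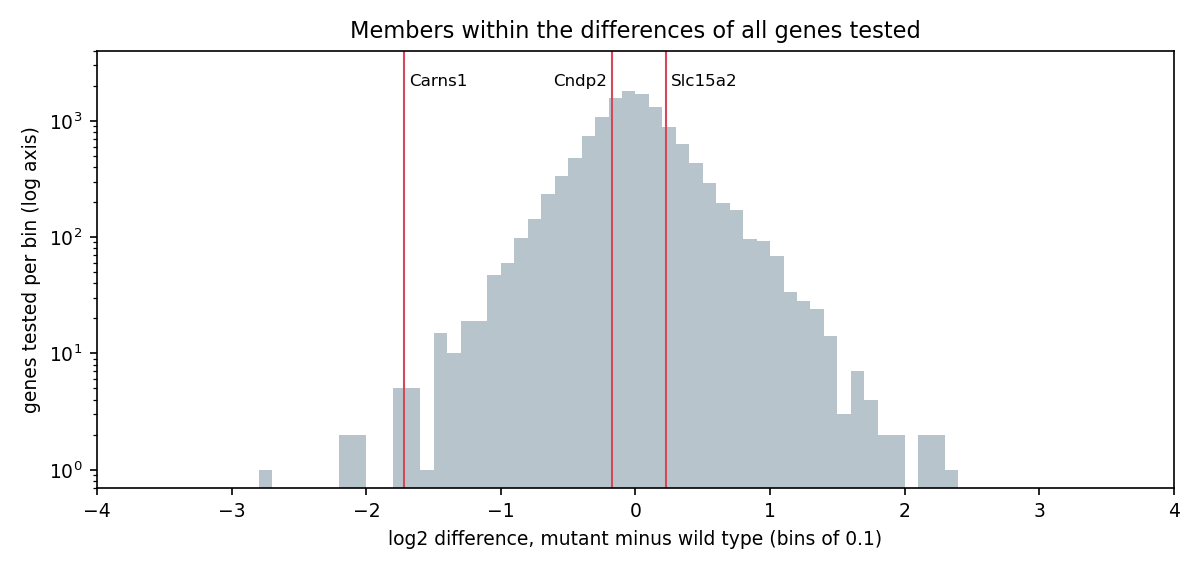
Number of genes per bin of log2 difference, mutant minus wild type, for the 12703 genes tested, on a log count axis; red lines mark the 3 members tested. Carns1 at -1.72 lies in the sparse lower tail, and Cndp2 at -0.17 and Slc15a2 at 0.22 lie within the bulk of genes.

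Because Carns1 is known from mature olfactory neurons, it was set beside a list of their markers. Of 15 listed genes, 10 had a probe set and all 10 were tested. Their median log2 difference was -0.88, with 8 lower and 2 higher in the mutant, and limma called 0 of them over all genes. At an unadjusted p under 0.05 there were 6 of the 10, all lower (0.598% of all genes tested), and 5 of the 10 were lower without overlap (1.95% of all genes tested). Stoml3, a protein of olfactory cilia, had means of 10.54 ± 0.11 over the wild-type and 9.67 ± 0.18 over the mutant arrays, and Gnal, the G protein subunit of odorant signalling, of 10.27 ± 0.08 and 9.35 ± 0.22 (SD, n = 3 each), both without overlap. Omp, the marker that defines mature olfactory neurons, differed by -0.36 (SE 0.42), with groups that overlapped. Many genes of this list were already known to be lower in these samples, so the list is no independent evidence.

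The gap between Carns1 and the median of these markers was wider on the mutant arrays; the size of the gap on 1 array has no meaning, since it sets different probe sets side by side, and only its change between arrays is described. The log2 level of Carns1 minus the median log2 level of the 10 markers was -1.05, -1.15 and -0.92 on wild-type arrays 1, 2 and 3, and -1.73, -2.73 and -2.60 on mutant arrays 1, 2 and 3. The wild-type values lay close together and all above the mutant values. Their means were -1.04 ± 0.12 and -2.35 ± 0.55 (SD, n = 3 each), a difference of -1.31. The marker levels were not centred per gene here, so that size also depends on which markers lie mid-rank on each array. It cannot be read as the fall of Carns1 beyond that of the markers, whose own differences had a median of -0.88. With the mean of the list in place of its median, the relative difference was -1.09. The difference of Carns1 was more negative than that of each of the 10 markers, which ranged from -1.41 for the channel subunit Cnga2 to 0.73 for the channel subunit Cngb1. Since Carns1 was chosen on this contrast, this order is a description only.

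The summed normalised intensity of the mature neuron list ran from 7260.3 to 9012.8 in wild type and from 4201.2 to 5725.0 in mutant, without overlap. None of its genes lay at the floor on all arrays. The part of this shift in the Carns1 difference was not tested. For immature neurons the sums were 20886.6 to 24615.7 and 19693.2 to 20986.6, with 7 of 10 genes lower and a median difference of -0.26. Of these 10, 4 were lower without overlap, beside 1.95% of all genes tested. In limma, 1 of the 10 had an unadjusted p under 0.05 and was lower, beside 0.598% of all genes tested.

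Summed markers of the other cells in which Carns1 is known overlapped between the groups. For skeletal muscle, 4 of 12 markers with a probe set passed the dim level, with a median difference of -0.29 and 3 of the 4 lower. Of all 12, 10 had a lower mean in the mutant, among them 3 dim genes without overlap, Myh8, Tnnc2 and Actn3. Over all single-symbol probe sets, 1.62% were lower without overlap. Myh8 and Tnnc2 had mutant arrays at the floor. Summed intensity of all 12 was 387.1, 540.6 and 1328.5 on wild-type arrays 1, 2 and 3 and 411.8, 465.8 and 783.6 on mutant arrays 1, 2 and 3. Both arrays numbered 3 were the highest of their group. On wild-type array 1, where Carns1 was highest, Acta1, Myh3, Tnnt3, Myl1 and Ttn were at the floor. Mylpf, Tnnc2, Myh8 and Actn3 lay above the floor there but below 5.19. The remaining markers were brighter on that array: Tnnt1 read 7.03, the muscle creatine kinase Ckm 6.50 and Tnni2 5.90. The muscle actin Acta1 itself differed by -1.04 (SE 0.55). Without both arrays numbered 3, the Carns1 difference was -1.72, while the part of muscle RNA in it was not tested. For oligodendrocytes, 6 of 8 markers passed the dim level, with a median difference of -0.11 and sums of 3691.0 to 5299.4 in wild type and 3906.0 to 4546.9 in mutant. The myelin genes Mog and Mag were at the floor on 3 and 4 of the 6 arrays, and the 6 tested markers were above it on every array. Cldn11, Cnp and Mbp had differences of 0.02 (SE 0.24), -0.03 (SE 0.34) and 0.14 (SE 0.38). Mobp, Ugt8a and Opalin were lower by point estimate, at -0.19 (SE 0.71), -0.25 (SE 0.83) and -0.67 (SE 1.06).

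The genes whose pattern over the 6 arrays was most like that of Carns1 were found by centring each gene on its own mean and taking the root mean square distance of the profiles. The nearest of 12702 genes was Nxpe3 at 0.32 log2 units, followed by Kif5a, a neuronal kinesin motor, at 0.33. Mustn1 followed at 0.33, A230107N01Rik at 0.35, Cnga2 at 0.36, Zfp948 at 0.36, and Ndrg4 and the kinase gene Dclk3 at 0.38 each. The median distance over all genes was 0.99. All 8 were lower in the mutant without overlap, with differences from -1.64 for Nxpe3 to -1.07 for A230107N01Rik, which a likeness to Carns1 brings with it. Among 13 marker lists of cell types, the centred median of the mature neuron list was nearest to Carns1 at 0.56, and that of immature neurons came next at 0.75. Carns1 was chosen on this contrast, and many mature neuron genes were already known to be lower in these samples. This order is therefore a description only and does not show in which cells Carns1 was expressed.

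Cndp2, the cytosolic dipeptidase, was similar in both groups. Probe set 1448263_a_at read 9.949, 10.607 and 10.001 on wild-type arrays 1, 2 and 3 and 10.110, 9.931 and 9.998 on mutant arrays 1, 2 and 3. Wild-type array 2 stood above the other 5 arrays, which lay within a narrow band. The means were 10.19 ± 0.37 and 10.01 ± 0.09 (SD, n = 3 each), a log2 difference of -0.17 (SE 0.22). Without wild-type array 2 the difference was 0.04.

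The other Cndp2 probe set gave a like pattern. Probe set 1460177_at read 8.51, 9.24 and 8.59 on the wild-type arrays and 8.78, 8.26 and 8.56 on the mutant arrays, again highest on wild-type array 2, with a difference of -0.25 (SE 0.28) that became -0.01 without that array. After centring, the profiles of these probe sets lay 0.11 log2 units apart, the smallest distance among the 21 pairs of member probe sets. Wild-type array 2 was also the array on which squamous epithelium markers were highest, with a summed intensity of 5253.5 against 339.7 to 2138.1 on the other 5 arrays. Fibroblast and cartilage markers were highest there too, at 19452.6 against 13145.7 to 16300.8. The part of any of these cells in the Cndp2 level was not tested. The genes nearest to Cndp2 in pattern were Psap, a lysosomal protein precursor, at 0.05, Tprgl and Acot7 at 0.07 each, and Pole3 at 0.07, against a median of 0.53 over all genes. Of the 13 marker lists, fibroblast and cartilage genes lay nearest, at 0.12 for 1448263_a_at and 0.19 for 1460177_at. Squamous epithelium genes lay farthest, at 1.23 and 1.16, as they did for every member probe set. This distance also grows with the size of a list's swings, and the centred squamous median ran from -1.485 to 2.65. That median too was highest on wild-type array 2, so its rank does not mean an unlike shape.

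Cndp1, the selective carnosinase, gave a dim and variable signal. Probe set 1455561_at read 6.17, 4.02 and 4.76 on wild-type arrays 1, 2 and 3 and 5.52, 4.14 and 5.02 on mutant arrays 1, 2 and 3. In both groups array 1 was the highest and array 2 the lowest, and the groups overlapped over most of their range. The means were 4.99 ± 1.09 and 4.89 ± 0.70 (SD, n = 3 each), a difference of -0.09 (SE 0.72). The sign turned without wild-type array 1 (0.50) or mutant array 2 (0.28), so no direction is given. Its mean level exceeded that of 35.4% of single-symbol probe sets.

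Slc15a2, the transporter, was measured by 3 probe sets, and none separated the groups. The brightest, 1417600_at, read 11.47, 10.66 and 10.82 on wild-type arrays 1, 2 and 3 and 11.12, 11.44 and 11.06 on mutant arrays 1, 2 and 3. Wild-type array 1 and mutant array 2 were the highest, and all 3 mutant values lay within the wider range of the wild-type values. The means were 10.98 ± 0.43 and 11.21 ± 0.20 (SD, n = 3 each), a difference of 0.22 (SE 0.26). Its mean exceeded that of 97.4% of single-symbol probe sets.

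The other Slc15a2 probe sets did not settle a direction either. Probe set 1424730_a_at read 8.96, 8.50 and 7.32 on the wild-type arrays and 8.82, 8.64 and 7.74 on the mutant arrays, with array 3 the lowest in both groups and a difference of 0.14 (SE 0.52). That difference became -0.34 without wild-type array 3 and -0.07 without mutant array 1. Probe set 1447808_s_at read 8.83, 8.57 and 7.59 on the wild-type arrays and 8.48, 8.10 and 8.38 on the mutant arrays, a difference of -0.02 (SE 0.37). That one became 0.23, 0.10 and 0.09 without wild-type array 1, wild-type array 2 and mutant array 2, and 0.03 with the values as deposited, and -0.39 when wild-type array 3 was left out and -0.43 when both arrays numbered 3 were. Distances between the centred profiles of the 3 probe sets were 0.39 to 0.50 log2 units, wider than between those of Cndp2.

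Of the marker lists, that of supporting cells lay nearest to Slc15a2 in its pattern over the arrays. Among the 13 marker lists, the centred median of the 12 genes of sustentacular cells and Bowman glands lay nearest to probe set 1417600_at at 0.17, followed by olfactory ensheathing and Schwann glia at 0.30. The same list was nearest to 1447808_s_at at 0.30 and to 1424730_a_at at 0.39, though at wider distances. Summed intensity of the sustentacular list was 21628.9, 17135.8 and 14564.3 on wild-type arrays 1, 2 and 3 and 18211.8, 21129.6 and 18534.9 on mutant arrays 1, 2 and 3. As for probe set 1417600_at, wild-type array 1 and mutant array 2 were the highest; mutant array 2 was not among the 2 highest arrays for the other probe sets, and was the lowest mutant array for 1447808_s_at. The genes nearest to probe set 1417600_at were Atp13a5 at 0.04, Zfp236 at 0.05, and the axon guidance receptor Robo1 and the zinc finger factor Myt1 at 0.08 each, against a median of 0.58 over all genes. This likeness is a description over 6 arrays and does not show in which cells Slc15a2 was expressed.

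**Figure D3:**
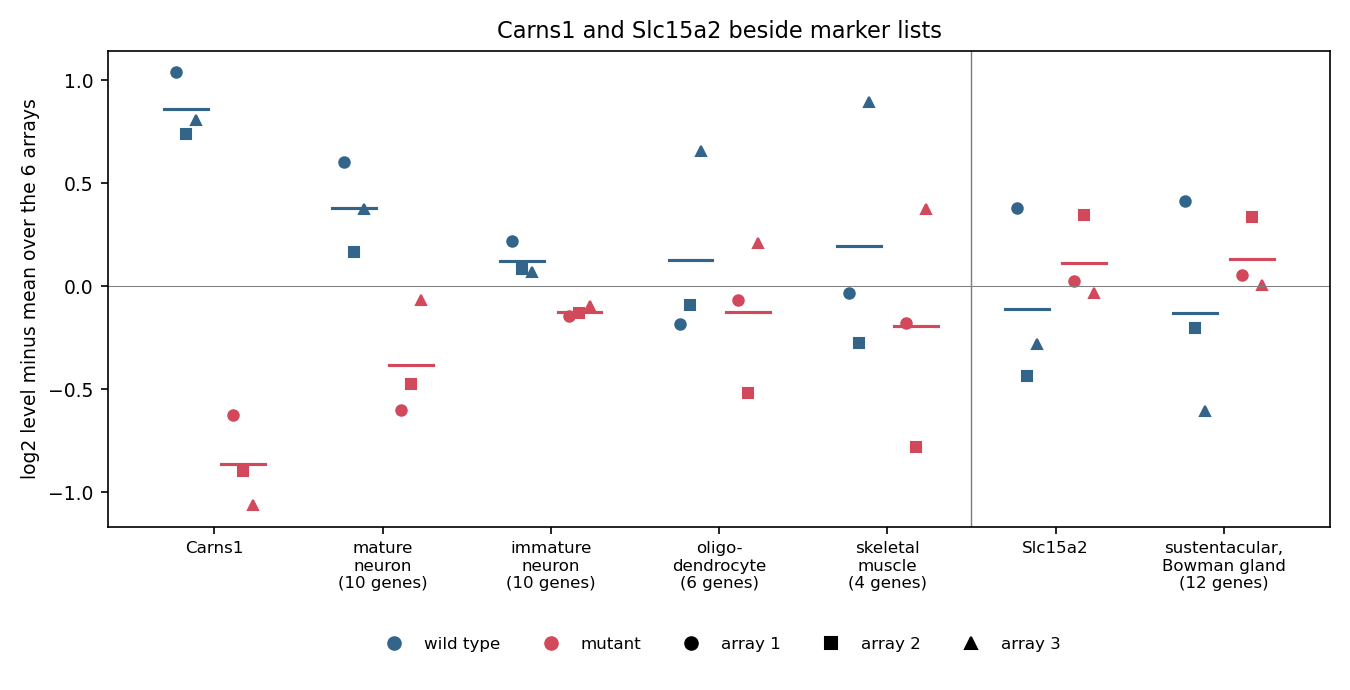
Log2 level minus its mean over the 6 arrays for Carns1, for Slc15a2 (probe set 1417600_at) and for the median of the tested genes of 5 marker lists; colours are groups, marker shapes replicate numbers and bars group means. Carns1, the mature neuron list and, by a smaller margin, the immature neuron list keep the groups apart. The oligodendrocyte and skeletal muscle lists are highest on wild-type array 3. Slc15a2 on this probe set and the sustentacular list share wild-type array 1 and mutant array 2 as their highest arrays.

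Of the members, 1 of 4 genes, Slc15a2, had a promoter in the RefSeq table used (GRCm38.p6). KLF proteins bind GC-rich and CACCC elements, and the bases at chr16:36785159-36785212 (minus strand), just upstream of the gene's 5′ end, are shown because they lie outside the gene's whole RefSeq span; that limit sets their length. Capitals mark a CCGCCC and a CACCC:
Slc15a2 upstream: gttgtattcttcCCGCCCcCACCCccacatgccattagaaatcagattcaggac
The search took both strands of CACCC and of CCGCCC, which do not overlap here. Among the first 54 bases of all 32851 promoter windows, 13.8% held CACCC, 5.39% held CCGCCC and 1.10% held both, shares that depend on this length. Over the whole windows of 300 bases, of which Slc15a2 held 1 match of each motif, the shares were 57.5% and 35.7%, and 23.8% held both. A match is a description of letters and no sign of binding, and Slc15a2 itself did not separate the groups.

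Among the tested genes of the wider pathway, no difference was as negative as that of Carns1. In 6 lists of related genes, 37 of 38 had a probe set and 28 were tested. Of these, limma called 0 lower and 0 higher (0% of all genes tested), with 0 at an unadjusted p under 0.05 (0.598% of all genes tested). With so few of all genes passing, Carns1 not called either, nothing is read from these counts. By point estimate 13 were lower and 15 higher, and the median difference was 0.02, beside -0.02 over all genes tested. The sign of that median turned under 8 of 18 alternative settings. Groups did not overlap for 1 of the 28, which was lower, where 1.95% of all genes tested were lower and 0.905% higher without overlap.

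That gene was Gadl1, a decarboxylase that can make beta-alanine from aspartate. It read 9.70, 8.76 and 8.73 on wild-type arrays 1, 2 and 3 and 8.66, 8.59 and 8.68 on mutant arrays 1, 2 and 3. Wild-type array 1 stood far above the rest, and the other wild-type arrays lay just above the mutant arrays. The difference was -0.42 (SE 0.30, limma), or 1.34-fold. The other 6 tested genes of beta-alanine supply and use were each higher in the mutant by point estimate, from 0.06 for Dpyd, the first enzyme of pyrimidine breakdown, to 1.14 (SE 0.80) for Csad, a decarboxylase of taurine synthesis. For Csad wild-type array 3 read 4.94 and the other 5 arrays 7.27 to 8.01.

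Genes that act on carnosine or carry its parts gave differences similar in size to their errors. Carnmt1, which methylates carnosine to anserine, differed by -0.20 (SE 0.22), and Pm20d2, a hydrolase of by-products of the synthase, by -0.62 (SE 0.66). The peptide transporters related to PEPT2 went both ways: Slc15a1 differed by 1.20 (SE 0.95) with 1 array at the floor, Slc15a3 by 0.79 (SE 0.76) and Slc15a4 by -0.48 (SE 0.62). Slc6a6, the carrier of taurine and beta-alanine, was nearly level at -0.07 (SE 0.18), from 11.37 ± 0.22 to 11.30 ± 0.20 (SD, n = 3 each).

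Histidine genes were split, with 4 of the 8 tested lower and 4 higher and a median of -0.04. The histidine transporter gene Slc38a3 differed by 0.002 (SE 1.20), the histidyl-tRNA synthetase Hars by -0.08 (SE 0.20), and Hdc, which turns histidine into histamine, by 0.04 (SE 0.40). Of other dipeptidases and acylases, 3 of 5 were lower and 2 higher, with a median of -0.09. Gad2, which makes the GABA used for homocarnosine, differed by -0.16 (SE 0.59), and Gad1 was too dim to be tested.

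**Figure D4:**
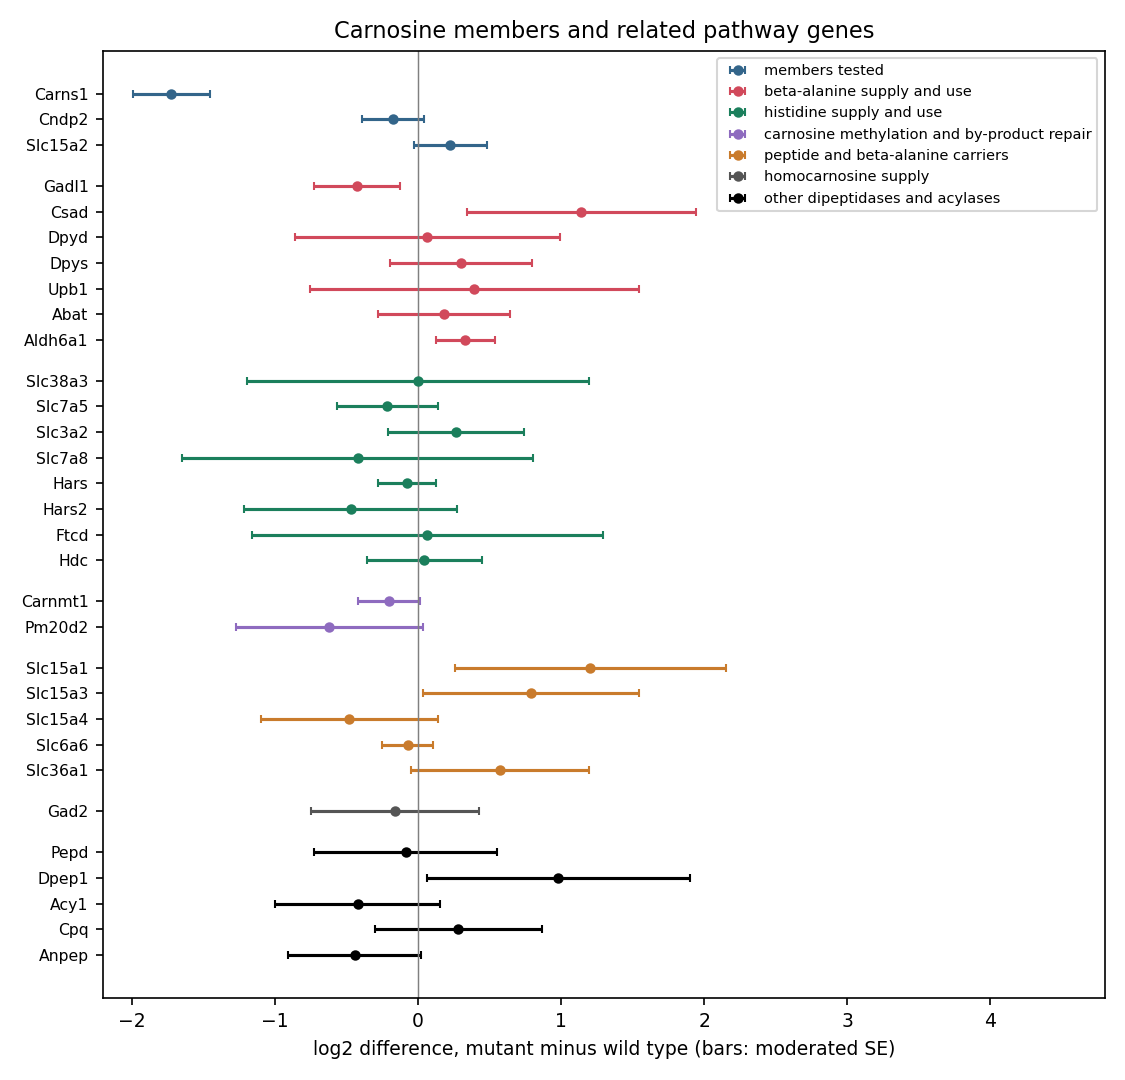
Log2 difference, mutant minus wild type, with the moderated SE as bars, for the 3 members tested and the 28 tested genes of 6 related lists. Carns1 lies at -1.72, and the pathway genes lie between -0.62 for Pm20d2 and 1.20 for Slc15a1, most of them with bars that cross 0.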

How the data were processed

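RNA of 3 wild-type and 3 mutant pups was measured on 1 array each; the replicates are separate pups per the labels. The table the authors deposited holds 1 linear intensity per probe set and array; the probe summary, correction and scaling are not given in the sources used here, and 5.39% of values are exactly 0. Array quartiles differed by up to 0.69 (log2), so intensities were quantile normalised, raised to the 20th percentile (12.56) and put on the log2 scale. This understates changes near the floor.

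Of 45037 probe sets, 34945 had 1 symbol in the platform annotation, 932 several and 9160 none. For each gene the probe set of highest mean was tested, unless it lay in the lowest 40% of means. The tests used limma 3.58.1 in R 4.3.3 (two-sided, intensity trend, Benjamini-Hochberg, threshold 0.05). Member differences and SEs came from a fit over all single-symbol probe sets. The code was tested on simulated data. The number of arrays, 3 per group, limits the precision.

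Members, lists and tests were chosen with earlier results of these data known. Genes named outside the members are the nearest profiles (8 for Carns1, 4 for Slc15a2 and Cndp2), fixed pathway and neuron genes, and pathway genes whose groups did not overlap; other genes named from the lists are examples chosen after their values were seen, as were the distances to marker lists. Same-numbered arrays deviated together (correlations of deviations across genes 0.47, 0.18 and 0.56 for numbers 1, 2 and 3), which meets the bar set for pairing, though no label tells what same-numbered arrays have in common. The main fit was unblocked, and blocking on the replicate number was an alternative. Alternatives changed normalisation, floor, dim filter, variance model, weights, probe set choice, arrays and pairing.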

Additional observations from a re-analysis of the deposited data

How the results depend on the processing

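The Carns1 difference stayed negative in all 13 alternatives run, from -1.80 to -1.57, and from -1.80 to -1.60 when each array was left out in turn. Carns1 was chosen on this contrast and its groups did not overlap, so its sign could hardly turn and is no support. The other floors left it at -1.72, since it lay above them on every array. Carns1 relative to the mature neuron list stayed between -1.58 and -1.09 in 15 alternatives, which include the immature list and the mean of the list. All differences of the other 6 member probe sets moved by less than the spread between replicates, but the signs of 4 of them turned under at least 1 alternative. With the replicate block the differences were unchanged by construction (Carns1 -1.72). The number of genes called by limma was 0 in all 18 alternatives, and 0 pathway genes were called in any. The count at an unadjusted p under 0.05, 76, became 43 with array medians set equal, 50 with values as deposited, 120 without both arrays numbered 3, 157 with the replicate block, 191 without the dim filter and 131 with array weights; it ran from 67 to 212 when each array was left out, with 212 without wild-type array 2 and 132 without wild-type array 3. Apart from these counts, the block changed no call. With 3 arrays per group, only large differences of low spread could pass over all genes. In the main fit, 0.598% of genes had an unadjusted limma p under 0.05, a smaller share than that threshold gives without any difference. The reason was not tested. The dim Cndp1 signal limits what can be said of that gene.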
